A study of Mus musculus with 2 samples.

Results

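The genes described here are the receptors and ligands of the epidermal growth factor (EGF) family that were followed in mouse gingiva: the receptors Egfr, Erbb2 and Erbb3, and the ligands Areg, Ereg, Hbegf, Tgfa, Btc, Epgn and Nrg1. They were chosen by gene symbol and make up 10 of the 32285 genes in the deposited matrices.

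The data were 2 single-cell RNA-seq libraries of palatal gingiva from female C57BL/6 mice (C57Bl6/J in the treatment protocol) aged 8 to 12 weeks. Under an oral appliance, the palate had received 3 µl of a ligand at 1 µg/ml for 1 h, and the tissue was taken 4 days later. The ligand was CpG ODN, a synthetic DNA oligonucleotide that stimulates Toll-like receptor 9 (TLR9), in the library labelled TLR9 ligand, and the lipopolysaccharide (LPS) of P. gingivalis in the library labelled TLR2/4 ligand. Cells of 4 mice were pooled for each library, no label separated the mice, and no untreated library was analysed here, so differences between the libraries had no replicate check and every interval given (95%) covers counting error only.

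Barcodes with fewer than 800 detected genes were left out. This gave 4888 cells in the CpG ODN library, at a median of 11077.5 unique molecular identifiers (UMIs, each a captured RNA molecule), and 1277 in the LPS library, at a median of 22680 UMIs. The libraries shared 1 cell barcode. Cells were grouped into 22 clusters without the use of the genes and gene lists reported here, and the clusters were named from known cell type markers. All markers of each cell class were detected in the clusters bearing its name, in both libraries. The epithelial-like class held 3763 cells after CpG ODN and 988 after LPS, or 77.0% and 77.4%. Within them, basal-like clusters (led by Igfbp3, Pappa or Hells), lower spinous-like clusters (led by Cryba2 and Krt76, by Lgi2 and Myc, or by Krt4) and upper-like clusters (led by Krt10, or by the cornified envelope gene Lor) were told apart by layer markers. The Lgi2/Krt15 (867 cells) and Ccl20 (235 cells) epithelial-like clusters got no layer name in this grouping, so they entered none of its layer levels or ratios. A level is given in CPM, the summed UMIs of a gene in a group of cells, scaled by the group's UMIs of all genes.

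EGF family ligands are made as membrane-anchored precursors and are released by sheddases of the ADAM family, after which most of those followed here bind EGFR. ERBB2 has no known ligand of its own and pairs with the other receptors, and ERBB3, which binds neuregulins such as NRG1, signals mainly through its partner because its own kinase is weak. In stratified epithelium the family is known for driving keratinocyte proliferation, migration and wound closure, and EGFR is known to be most abundant in the basal layer.

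All 10 genes were located by identifier in the GENCODE M21 annotation of GRCm38. Egfr (chr11:16752203-16918158) and Erbb2 (chr11:98412470-98437716) were on chromosome 11, and Erbb2 overlapped the gene Mien1 on the opposite strand. Erbb3 was at chr10:128567523-128589652, Hbegf at chr18:36504927-36515805, Tgfa at chr6:86195223-86275719 and Nrg1 at chr8:31814551-32884029.

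The ligand genes Epgn, Ereg, Areg and Btc lay together on chromosome 5, within 375.5 kb (chr5:91027464-91402994) that held no other protein-coding gene. Areg was at chr5:91139599-91148432, Ereg at chr5:91074622-91093646, Epgn at chr5:91027464-91035215 and Btc at chr5:91357261-91402994. Promoter sequence from RefSeq (GRCm38.p6) matched 6 of the 10 genes and was not matched for Erbb3, Ereg, Hbegf and Nrg1.

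The 250 bases upstream of Areg (chr5:91139349-91139598, plus strand) and of Btc (chr5:91402995-91403244, minus strand) are shown. Both genes were at their highest in the Lor upper-like cluster described below and stand in the same ligand locus. The same holds for Epgn, whose window was matched but is not shown. Capitals mark, on either strand, a cyclic AMP response element (TGACGTCA) and a TATA box (TATAAA).
Areg: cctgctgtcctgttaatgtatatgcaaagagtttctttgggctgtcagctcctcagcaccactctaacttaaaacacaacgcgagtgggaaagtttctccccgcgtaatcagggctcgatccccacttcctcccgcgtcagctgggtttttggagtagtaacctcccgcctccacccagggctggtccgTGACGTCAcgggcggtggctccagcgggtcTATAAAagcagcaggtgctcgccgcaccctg
Btc: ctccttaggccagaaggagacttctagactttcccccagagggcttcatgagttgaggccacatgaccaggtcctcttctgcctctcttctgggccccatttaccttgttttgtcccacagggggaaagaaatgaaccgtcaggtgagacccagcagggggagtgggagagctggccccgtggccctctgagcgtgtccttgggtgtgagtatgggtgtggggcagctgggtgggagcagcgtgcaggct
The response element of Areg began 61 bases before the transcript start and its TATA box 31 bases before it. The Epgn window (chr5:91027267-91027516, plus strand) held a TATA box match that began 86 bases before the RefSeq transcript start. The last 53 bases of this window lay inside the GENCODE gene, whose start was earlier than the RefSeq one. Among all 32851 promoter windows of this length, 1.55% held the response element and 12.4% the TATA box. The AP-1 site TGANTCA, searched on both strands, was in none of the 6 matched windows and in 6.75% of all windows, and Btc held none of the 3 motifs. A match of letters is a description of the window only.

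Most RNA of the family was in the epithelium, as was most RNA of all genes. Epithelial-like cells held 94.0% of the UMIs of the 10 genes after CpG ODN and 92.98% after LPS, close to the 91.3% and 92.0% they held of the UMIs of all genes. The genes differed greatly in how well they were counted, from Hbegf with 11300 and 7414 UMIs down to Epgn with 112 and 37. B-like cells, which should lack the family, had 0 to 2 UMIs of each gene in either library. The level of epithelial keratin RNA (Krt5 and Krt14 summed) in B-like cells was 0.922% and 0.646% of that in epithelial-like cells. It was higher in some other classes, at 8.94% and 6.36% in fibroblast-like, 7.55% and 0.527% in T-like, 2.67% and 6.23% in mural-like and 2.48% and 0.345% in endothelial-like cells. At those shares, keratinocyte RNA would carry 3.25 and 2.24 CPM of Egfr and 14.6 and 12.6 CPM of Hbegf in fibroblast-like cells, 4.36 and 12.3 CPM of Hbegf in mural-like cells, and 1.74 and 0.168 CPM of Areg in T-like cells. These values take the carried RNA to be that of all epithelial-like cells together. Carry-over from single layers was not estimated.

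**Figure D1:**
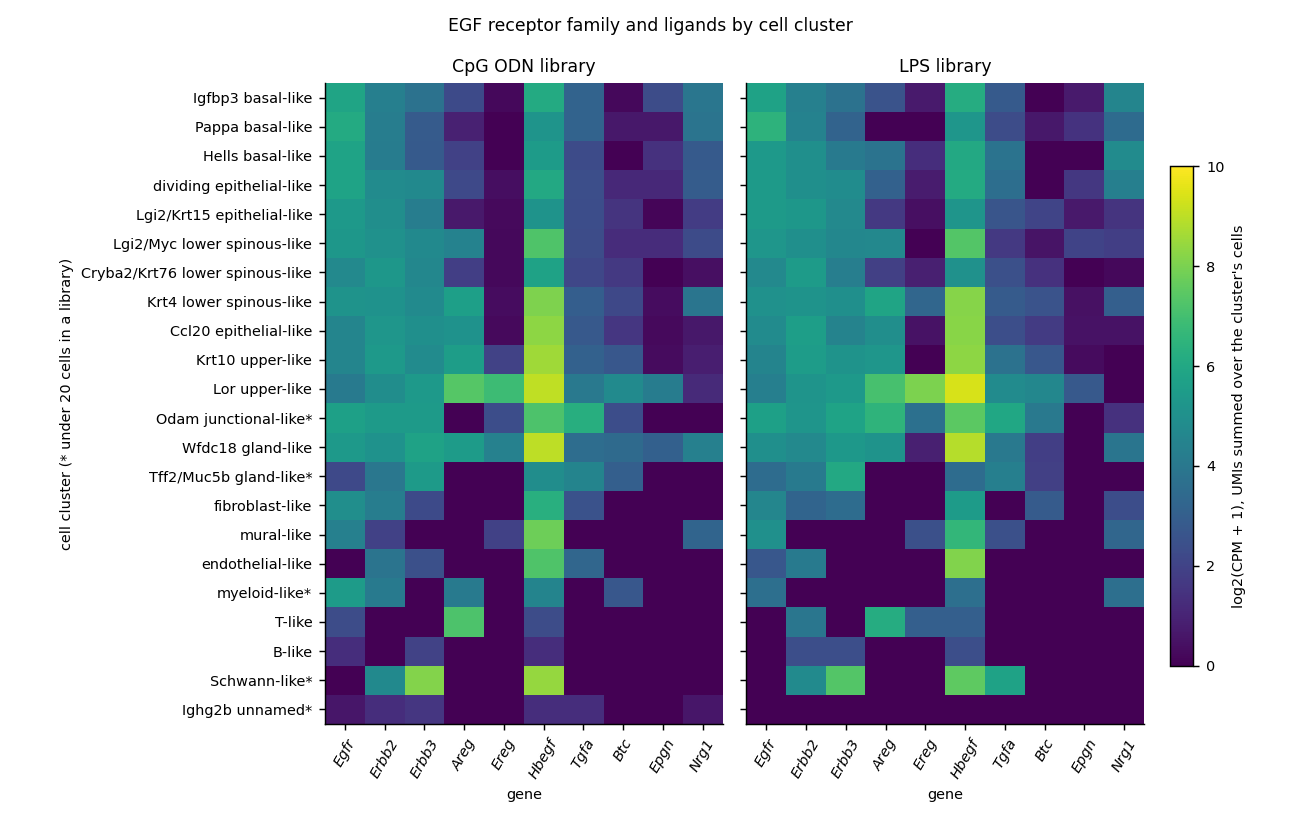
Level of each gene (columns) in each cell cluster (rows) of the CpG ODN and the LPS library, as the log2 of CPM + 1 on a colour scale from 0 to 10. Ereg is brightest in the Lor row, Egfr is brightest in the Pappa basal-like row, and the B-like row is dark for every gene.

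Egfr, the receptor for most of these ligands, was highest in the basal-like layer. It measured 59.3 CPM [55.0, 63.9] after CpG ODN and 62.0 [55.6, 68.9] after LPS in basal-like cells, 30.5 and 30.1 in lower spinous-like cells, and 20.9 and 20.8 in upper-like cells. Levels thus stepped down from the basal to the upper layer in both libraries. Among the 17 cell groups with at least 20 cells in each library, the Pappa basal-like cluster stood first at 68.5 and 87.3 CPM. Both values were above both values of the next group. Groups are called separate here where their values in the libraries do not overlap, and the intervals were not used for this. The Igfbp3 basal-like cluster followed at 55.6 and 52.6 CPM, and it could not be separated from the dividing cells at 55.4 and 42.7. Fibroblast-like cells also carried Egfr at 29.9 and 23.1 CPM, whereas endothelial-like cells had 0 and 1 UMIs.

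Erbb2 and Erbb3 ran the other way. Erbb2 measured 18.4 and 21.2 CPM in basal-like cells, 35.7 and 38.1 in lower spinous-like cells and 38.1 and 40.9 in upper-like cells. Among groups with at least 20 cells in each library its mean level was highest in the Krt10 cluster (41.4 and 44.5 CPM), and this cluster could not be separated from the Ccl20 and Cryba2/Krt76 clusters next in order. Erbb3 measured 9.82 and 11.6 CPM in basal-like, 24.9 and 24.4 in lower spinous-like and 30.9 and 36.8 in upper-like cells, with 41.1 and 41.2 in the Lor cluster. Outside the stratified layers, Erbb3 reached 53.2 and 39.7 CPM in the Wfdc18 gland-like cluster. In Schwann-like cells, a lineage known to depend on ERBB3, it reached 285 and 158 CPM, but on 11 and 6 UMIs in 18 and 11 cells.

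Hbegf, a ligand that also binds ERBB4, was found in nearly every epithelial cluster, with a steep gradient. Basal-like cells had 54.8 and 59.6 CPM, lower spinous-like cells 119 and 158, and upper-like cells 418 and 443. The Lor cluster stood highest at 521 CPM [497, 547] after CpG ODN and 668 [637, 699] after LPS. The Wfdc18 gland-like cluster came next at 516 and 475 CPM, and after CpG ODN its level lay within the interval of the Lor cluster. Vessel cells carried Hbegf as well, at 151 and 271 CPM in endothelial-like and 221 and 98.0 in mural-like cells.

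Areg, which encodes amphiregulin, was nearly restricted to some clusters. Basal-like cells had 2.73 and 4.35 CPM (32 and 24 UMIs), the Krt10 cluster 45.9 and 37.0, and the Lor cluster 162 [148, 177] and 136 [122, 150]. In the lower spinous-like layer it depended on the cluster, with 48.4 and 56.3 CPM in the Krt4 cluster, 20.4 and 24.6 in the Lgi2/Myc cluster and 2.59 and 2.75 in the Cryba2/Krt76 cluster. T-like cells, some of which are known to make amphiregulin, had 146 and 71.5 CPM, but this rested on 6 of 80 and 1 of 26 cells. In the junctional-like cluster marked by Odam, with 17 cells in each library, 53 UMIs were counted after LPS and 0 after CpG ODN, which allows up to 12.6 CPM against the 90.2 measured after LPS.

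Ereg, which encodes epiregulin, was the most confined. Of its 422 UMIs after CpG ODN, 363 were in the 89 cells of the Lor cluster, and of its 769 UMIs after LPS, 698 were in 33 cells. Its level there was 115 CPM [103, 127] after CpG ODN and 261 [242, 281] after LPS. Basal-like cells held 1 and 3 UMIs. The neighbouring Krt10 cluster had 26 UMIs after CpG ODN and 0 after LPS. Elsewhere the counts came from few cells, with 32 of the 50 UMIs of the Krt4 cluster after LPS in 1 cell, and 21 of the 22 of the Wfdc18 gland-like cluster after CpG ODN in 1 cell. Ereg was detected in 41.6% of the Lor cluster cells after CpG ODN and in 78.8% after LPS, where the cells had medians of 35754 and 78780 UMIs. With every cell thinned to 1500 UMIs the shares were 13.6% and 28.8%. None of the 284 and 69 B-like cells had a UMI of it, which limits the share of B-like cells with a UMI, at their medians of 2149.5 and 3157 UMIs, to 1.06% and 4.35% and says nothing of expression below that depth.

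Btc and Epgn, which encode betacellulin and epigen, were low and also peaked in the Lor cluster. Btc measured 26.9 and 24.0 CPM there, 5.58 and 5.51 in the Krt10 cluster, and 0.256 and 0.181 in basal-like cells on 3 and 1 UMIs. Epgn reached 17.4 CPM [13.1, 22.6] in the Lor cluster after CpG ODN and 5.99 [3.42, 9.73] after LPS. A second place for Epgn was the Igfbp3 basal-like cluster after CpG ODN, with 26 UMIs (4.02 CPM) against 2 UMIs (0.645 CPM) after LPS. Tgfa, encoding transforming growth factor alpha, was spread thinly, with 7.43 and 6.34 CPM in basal-like, 4.16 and 4.83 in lower spinous-like and 9.63 and 18.2 in upper-like cells. Its highest level in both libraries was in the Odam junctional-like cluster, at 75.9 CPM [45.0, 120] and 61.3 [42.9, 84.8], on 18 and 36 UMIs.

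Nrg1, a ligand of ERBB3 and ERBB4, was higher in basal-like than in upper-like cells. It measured 12.6 CPM [10.7, 14.8] after CpG ODN and 19.2 [15.7, 23.2] after LPS in basal-like cells, 3.70 and 3.44 in lower spinous-like cells, and 11 and 0 UMIs in upper-like cells. Its level was 14.1 and 22.3 CPM in the Igfbp3 basal-like cluster, 13.9 and 7.16 in the Krt4 cluster and 19.3 and 13.8 in the Wfdc18 gland-like cluster. Of the ligands among the 10 genes, Nrg1 was the one at a lower level in upper-like than in basal-like cells in both libraries. Its relative Nrg2 had the same order.

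The other genes of the family added little RNA. Erbb4 had 5 and 1 UMIs and Nrg3 had 0 in both libraries. Nrg2 had 444 and 225 UMIs, with 98.3 and 31.5 CPM in fibroblast-like cells and 20.8 and 23.6 in basal-like cells. In upper-like cells it had 3 and 0 UMIs, a ratio to basal-like cells of 0.0121 [0.00247, 0.0357] after CpG ODN and at least 56.6-fold lower after LPS. Egf itself had 75 and 93 UMIs and was highest in the mucous gland-like cluster led by Tff2 and Muc5b, at 28.8 and 58.9 CPM on 8 and 22 UMIs. Nrg4 had 82 and 62 UMIs, spread over epithelial-like cells.

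Upper-like cells were then compared with basal-like cells within each library, counting a gene as different where its CPM ratio was at least 2 either way and it had at least 50 UMIs in both groups together. Of the 10 genes counted after CpG ODN, 6 were higher in upper-like cells, against 11.3% of all genes. After LPS, 6 of 9 were higher, against 12.3% of all genes. In each library 2 were lower, Egfr and Nrg1, against 38.7% and 38.1% of all genes. The median ratio of the 10 genes was 2.56 after CpG ODN and that of the 9 was 3.17 after LPS, beside medians over all genes of 0.633 and 0.639.

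The ratios of upper-like to basal-like cells were similar in the libraries for the strongly counted genes. Hbegf was higher by 7.64 times [7.03, 8.30] after CpG ODN and 7.43 [6.63, 8.35] after LPS. Areg was higher by 28.1 times [19.7, 41.3] and 16.9 [11.2, 26.6]. Erbb3 gave ratios of 3.15 [2.55, 3.92] and 3.17 [2.404, 4.23], and Erbb2 of 2.08 [1.76, 2.45] and 1.93 [1.55, 2.41]. For Ereg and Btc the ratios rested on 1 to 3 basal UMIs. Ereg gave 382 [68.1, 15119] and 178 [60.7, 866], and Btc 43.8 [14.7, 215] and 68.1 [11.9, 2720]. The Egfr ratio was 0.352 [0.303, 0.407] and 0.336 [0.275, 0.408]. Nrg1 gave 0.0730 [0.0356, 0.134] after CpG ODN, and after LPS, with 0 UMIs in upper-like cells, it was at least 46.2-fold lower against a floor of 3 counts over the group. Tgfa differed by 1.30 times [0.974, 1.73], an interval that holds 1, after CpG ODN and by 2.86 [1.96, 4.29] after LPS.

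Because the median gene was lower in upper-like cells by 0.66 and 0.65 on the log2 scale, the ratios also depend on the scaling. Relative to the median gene, Egfr was at 0.556 and 0.525, no longer past 2-fold, Nrg1 stayed lower at 0.115 after CpG ODN, and Erbb2 and Erbb3 were at 3.28 and 4.98 after CpG ODN and 3.02 and 4.96 after LPS. With this scaling the members at least 2-fold higher in upper-like cells were 8 after CpG ODN, with Tgfa (2.05) and Epgn (2.85) added, and 7 after LPS, with Erbb2 added.

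**Figure D2:**
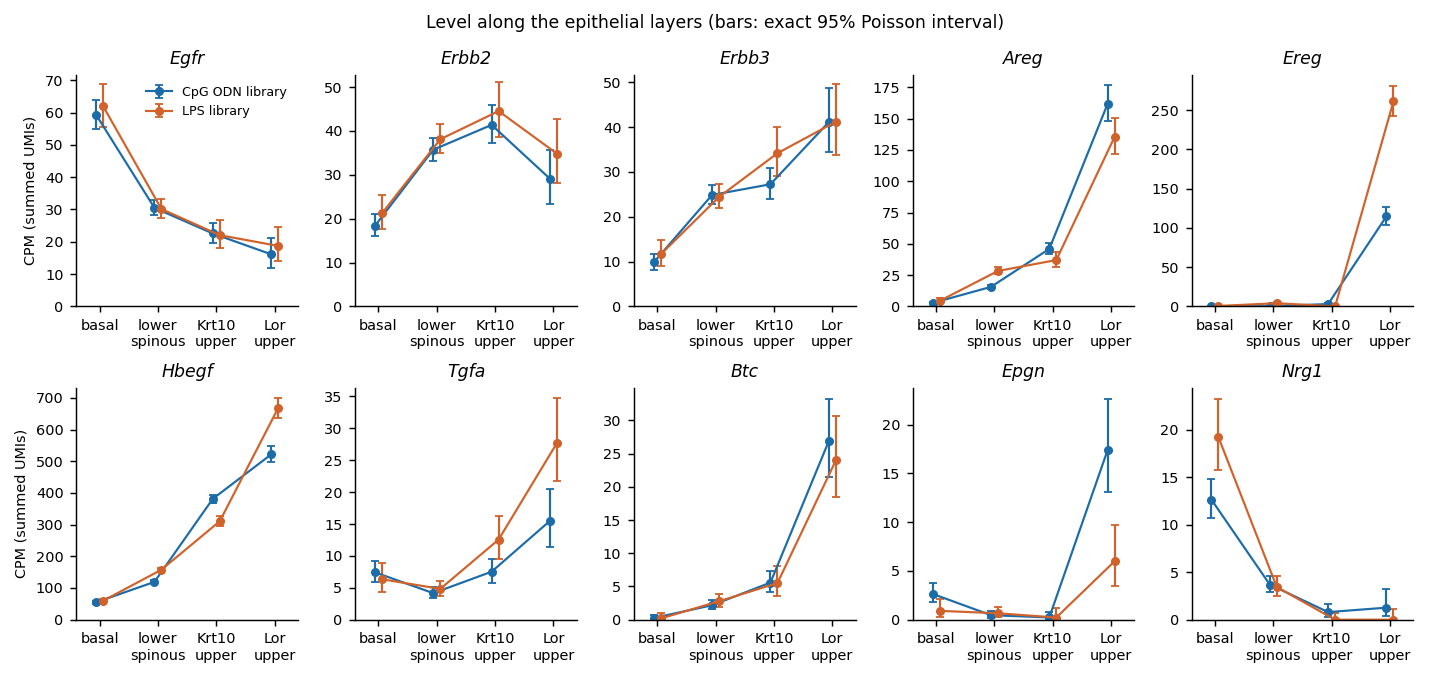
CPM (vertical axes, each from 0) of each gene in basal-like and lower spinous-like cells and in the Krt10 and Lor upper-like clusters (horizontal axes), with bars for exact 95% Poisson intervals and colours for the libraries. Egfr is at 59.3 and 62.0 CPM in basal-like cells and at 16.1 and 18.7 in the Lor cluster, while Areg, Ereg, Hbegf and Btc are highest in the Lor cluster in both libraries.

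Between the libraries, most of the family was at a similar level in the epithelium. In all epithelial-like cells only Ereg differed by at least 2-fold, 1 of 10 genes, against 3.02% of all genes. Ereg was at 6.20 CPM after CpG ODN and 22.4 after LPS, a ratio of 0.277 [0.244, 0.313]. The receptors were close, at 1.03 [0.965, 1.11] for Egfr, 0.877 [0.817, 0.942] for Erbb2 and 0.896 [0.823, 0.975] for Erbb3. Hbegf gave 0.826 [0.801, 0.852], Areg 0.723 [0.669, 0.783], Btc 0.760 [0.615, 0.940], Tgfa 0.677 [0.582, 0.788] and Nrg1 0.813 [0.674, 0.983]. Epgn was the gene with a higher level after CpG ODN, at 1.49 [1.02, 2.23]. The median ratio of the 10 genes was 0.820, beside 0.991 over all genes.

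Some of these ratios moved with the make-up of the libraries. The Krt4 cluster, rich in Areg and Hbegf, held 4.05% of all CpG ODN cells and 11.7% of all LPS cells. With equal weight for each of the 11 epithelial-like clusters that had at least 20 cells in each library, Areg was at 1.03, Btc at 1.07, Hbegf at 0.954, Nrg1 at 0.691, Ereg at 0.434 and Epgn at 1.79. These 11 leave out the junctional-like cluster, where Areg had 0 and 53 UMIs. With it included, Areg was at 0.802, Btc at 0.859, Tgfa at 0.930 and Ereg at 0.431. Among cells at or below the median share of the dissociation response genes described below, Areg was at 0.174, on 69 UMIs in all, Btc at 0.480, on 99 UMIs, and Epgn at 0.708, on 14 UMIs. With cells thinned to 5000 UMIs in a single random draw, and cells under 5000 UMIs left out, Tgfa was at 0.997.

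Within single layers the picture was similar. In basal-like cells none of 7 genes counted differed by 2-fold, against 0.902% of all genes. With thinned cells Areg was at 4.01, in place of 0.628 [0.358, 1.11], and Tgfa at 2.44. Before thinning, Areg had 32 and 24 UMIs there and Tgfa 87 and 35, and the fewer UMIs left after it were not recorded. Nrg1 was at 0.657 [0.509, 0.852], which became 1.10 among cells low in the dissociation response (100 UMIs) and 0.864 with thinned cells. In lower spinous-like cells 1 of 9 differed, against 1.83% of all genes. This was Ereg, at 4 against 55 UMIs, most of the 55 in the single cell named above. Areg was at 0.550 [0.474, 0.638] there, in a layer whose largest cluster was Cryba2/Krt76 after CpG ODN (491 of 1068 cells) and Krt4 after LPS (149 of 360). This Areg ratio depended on the processing, at 0.954 as the mean of the CPM per cell, 1.15 at Leiden resolution 0.6, 0.451 at resolution 1.5 and 0.440 with at least 1200 detected genes. In upper-like cells 2 of 9 differed, against 3.05% of all genes, with Ereg lower at 0.337 [0.297, 0.382] and Epgn higher at 2.02 [1.16, 3.71], close to the threshold. Tgfa was at 0.530 [0.409, 0.686] in upper-like cells, and Areg at 1.04 [0.936, 1.16].

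**Figure D3:**
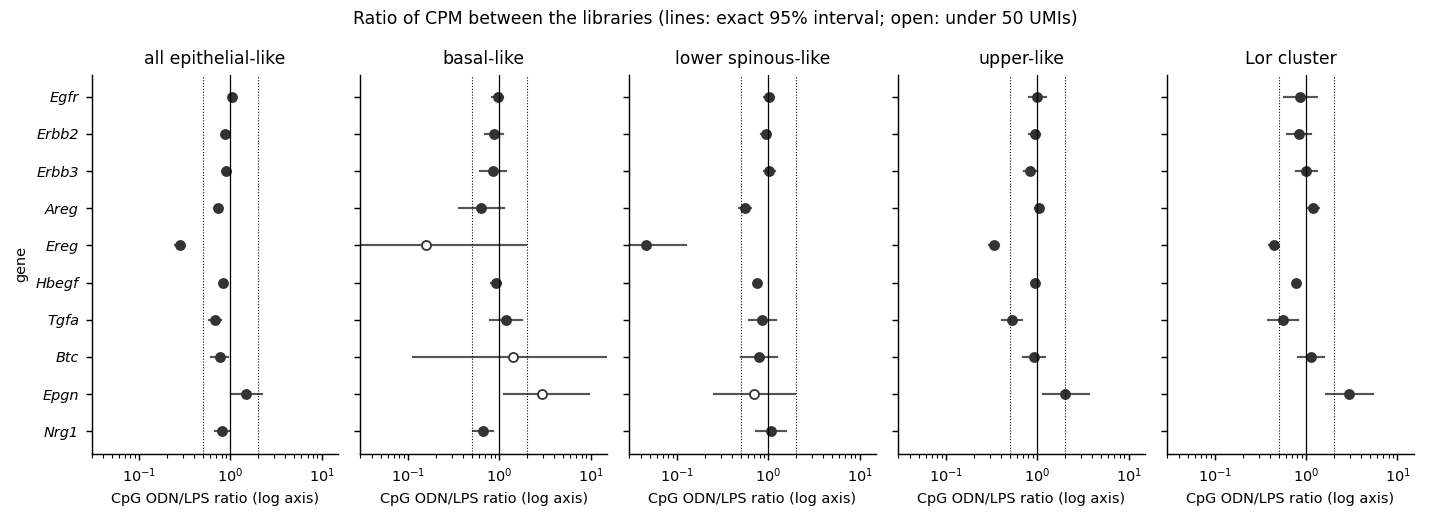
Ratio of CPM, CpG ODN over LPS (log axis), for each gene in all epithelial-like cells, 3 layers and the Lor cluster, with exact 95% intervals; open symbols have under 50 UMIs and dotted lines mark 2-fold. Egfr, Erbb2 and Erbb3 sit near 1 throughout, Ereg is below 0.5 in all epithelial-like cells and in the Lor cluster, and Epgn is above 1 in upper-like cells and the Lor cluster.

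The Lor cluster, where Areg, Ereg, Hbegf, Btc and Epgn were highest among the epithelial-like layers, held 89 cells after CpG ODN and 33 after LPS. Ereg was at 0.439 [0.386, 0.499] of its LPS level in it, Tgfa at 0.559 [0.382, 0.813], Hbegf at 0.781 [0.730, 0.836], Areg at 1.19 [1.04, 1.37] (0.998 with thinned cells) and Epgn at 2.90 [1.64, 5.43]. Counts per cell were uneven. Ereg had a median of 0 UMIs and a highest value of 52 after CpG ODN, and a median of 12 and a highest value of 109 after LPS. Areg and Ereg were detected together in 28 of 89 and 24 of 33 cells.

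The cells of this cluster differed between the libraries in upper layer markers, in both directions. Lor itself was at 4093 CPM after CpG ODN and 18682 after LPS, and Crct1, Lce3c and Krt1 were also lower after CpG ODN, at ratios of 0.272, 0.205 and 0.519. Krt10, Flg, Hrnr, Sprr1b and Ivl were higher, at 1.90, 1.72, 2.10, 1.66 and 1.59. Of the 17 markers of the upper layer, 8 were higher after CpG ODN and 9 after LPS. Among cells above the cluster's median share of Lor (37 and 24 cells), Ereg was at 244 and 311 CPM, a ratio of 0.785 [0.683, 0.902] in place of 0.439. These cells were still not matched for Lor, which was at 10262 and 23545 CPM in them. Among the rest (52 and 9 cells) it was at 32.6 and 75.1 CPM. Epgn stayed higher after CpG ODN among the cells above the median, at 22.0 against 6.63 CPM. That rested on 27 and 14 UMIs, and 1 cell held 14 of the 27. Areg was higher there as well, at 202 against 120 CPM. Among the rest Areg was lower after CpG ODN, at 137 against 195 CPM, a ratio of 0.701 [0.559, 0.885]. Hbegf also turned, from 0.893 [0.821, 0.971] above the median to 1.51 [1.27, 1.80] among the rest. The part of the Lor difference in the Ereg difference was not tested.

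**Figure D4:**
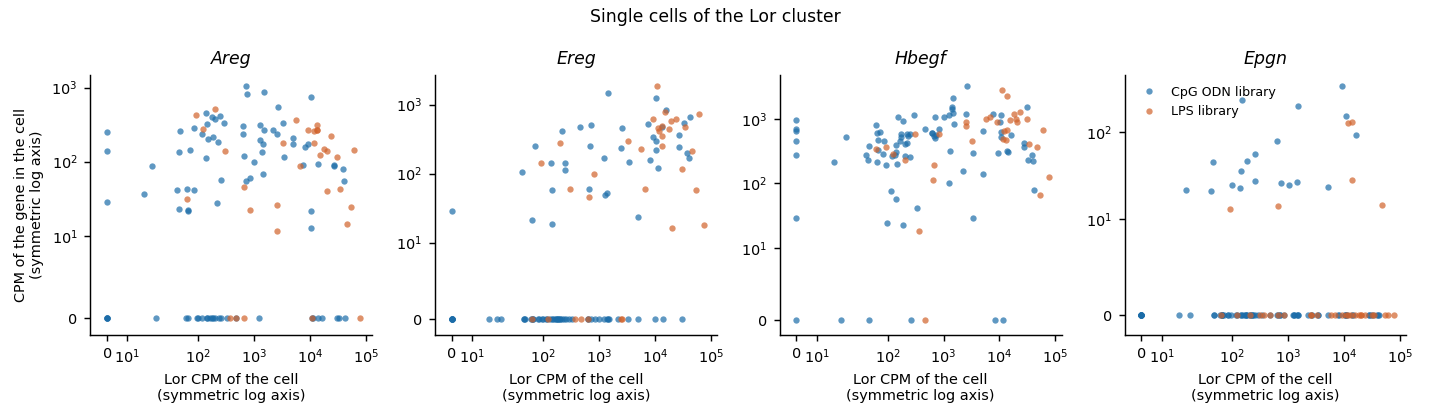
Each point is 1 cell of the Lor cluster, with its Lor CPM on the horizontal and the CPM of Areg, Ereg, Hbegf or Epgn on the vertical axis (both symmetric log axes), coloured by library. Cells with high Ereg lie mostly at high Lor, LPS cells crowd at high Lor, and Hbegf is spread over all Lor levels.

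Enzymatic dissociation at 37 °C is known to induce immediate early and heat shock genes, and Hbegf and Areg are themselves known to respond quickly to stress. A list of 18 such genes was therefore summed. It stood at 20975 and 18108 CPM in the Lor cluster, 17856 and 15226 in the Krt10 cluster, 18063 and 17530 in the Ccl20 cluster and 15542 and 16187 in the Lgi2/Myc cluster, against 4219 and 3688 in the Pappa cluster and 5045 and 4687 in the Lgi2/Krt15 cluster. Hbegf and Areg were low in the clusters lowest in the list, but their order did not follow the list throughout. The Krt4 cluster, with a list sum of 11871 and 13231 CPM, had more Hbegf and Areg than the Lgi2/Myc cluster, at 270.2 and 288 against 152 and 157 CPM for Hbegf. The Lgi2/Myc cluster had 4.42 and 4.32 times the Hbegf and 34.5 and 11.3 times the Areg of the Lgi2/Krt15 cluster, which it resembled in leading genes. The Ccl20 cluster had 5.85 and 9.25 times the Hbegf and 12.98 and 10.9 times the Areg of the Cryba2/Krt76 cluster.

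Within each of these 11 epithelial-like clusters (the junctional-like cluster was too small to split), and in both libraries, Hbegf was higher in the cells above the median share of the list in that cluster and library. Areg was too, except in the Pappa cluster after LPS, where it had no UMI. In the Krt10 cluster, Hbegf was at 191 and 67.1 CPM in the cells with a lower share of the list and 582 and 507 in the cells with a higher share. Areg there was at 24.4 and 12.8 against 68.6 and 56.5 CPM. Ereg ran the other way in the Lor cluster, at 127 and 292 CPM in the cells with a lower share and 104 and 223 in those with a higher share. Egfr in the Krt10 cluster was at 22.0 and 22.7 against 23.2 and 21.5 CPM. How much of the Hbegf and Areg level arose before dissociation was not tested.

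**Figure D5:**
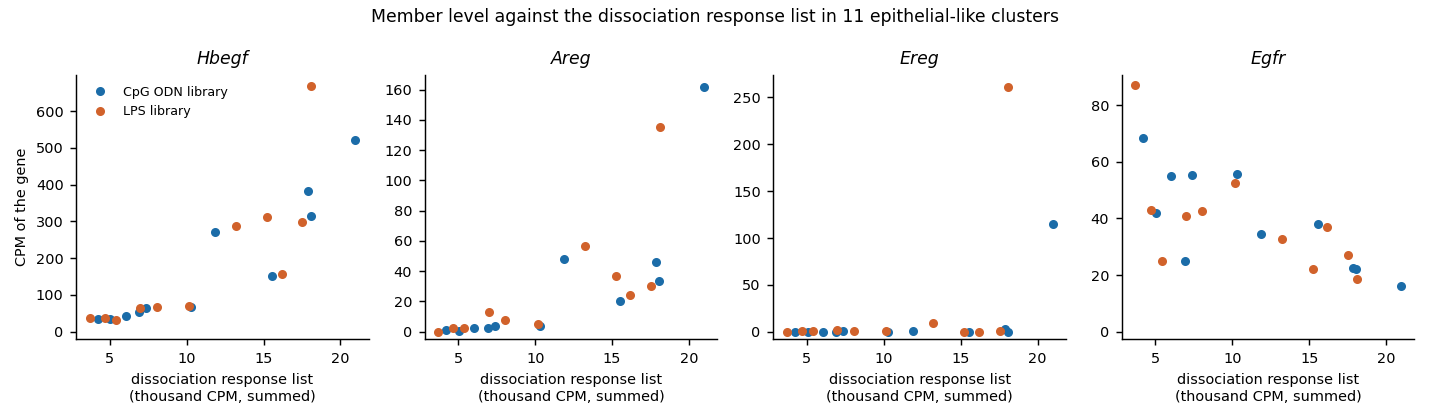
Each point is 1 of the 11 epithelial-like clusters with at least 20 cells in each library, in 1 library, with the summed CPM of the 18 dissociation response genes (axis in kilo-CPM) on the horizontal and the CPM of Hbegf, Areg, Ereg or Egfr on the vertical axis. Hbegf is lowest at the left and highest in the Lor cluster at the right, Egfr is highest in the Pappa cluster at the left, and Ereg stands out in the Lor cluster alone.

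Genes that act with the family were followed as 6 lists, of which the dissociation list shared 8 genes with the lists of ERK feedback inhibitors and ERK target transcription factors. Between the libraries, in all epithelial-like cells, 1 of 8 sheddase genes counted, 1 of 21 adaptors and kinases, 1 of 11 ERK feedback inhibitors and 1 of 16 ERK target transcription factors were at least 2-fold lower after CpG ODN, none of any list was higher, and none of 14 receptor turnover genes or 18 dissociation genes differed. Over all genes 3.02% were past 2-fold either way. Those lower were Adam8, a sheddase gene mostly known from leukocytes, at 0.437 [0.345, 0.552], the adaptor gene Gab2 at 0.497 [0.289, 0.852] on 29 and 31 UMIs, the ERK phosphatase gene Dusp4 at 0.292 [0.185, 0.454], and Phlda1 at 0.379 [0.356, 0.403]. Phlda1 is an ERK-responsive gene that is listed with the transcription factors but encodes none. The highest ratios of each list ran from 1.04 for Adam15 to 1.28 for Pik3r1 and Egr2, with Ier2 at 1.11, Cblb at 1.17 and Spred2 at 1.18. The lowest ratios of the lists with no gene past 2-fold were 0.714 for Errfi1, an inhibitor of EGFR, and 0.675 for Hspa1a. The list medians lay between 0.910 and 0.992, beside 0.991 over all genes.

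Between basal-like and upper-like cells, the list counts are read beside the shares over all genes, of which 38.7% and 38.1% were lower and 11.3% and 12.3% higher in upper-like cells. Of 7 ERK feedback inhibitors, 4 were at least 2-fold lower in each library and 2 and 1 were higher. The median ratio of this list was 0.259 after CpG ODN and 0.235 after LPS. Receptor turnover genes were lower in 6 of 13 and 6 of 12, near the share over all genes, with 0 and 1 higher. ERK target transcription factors were higher in 7 of 15 and 5 of 14, with 1 and 0 lower, and 7 of them also belong to the dissociation list, which was higher in 13 and 8 of 18. Adaptors and kinases were lower in 5 of 20 in each library and higher in 1 and 2, and of 7 sheddase genes 2 were higher in each library and 0 and 1 lower. Named after their values were seen, Spred2, an inhibitor of ERK activation, was at 0.0377 and 0.0158, Dusp6, an ERK phosphatase gene, at 0.0637 and 0.133, and the sheddase gene Adam15 at 3.64 and 3.15. All these ratios carry the shift of the median gene given above.

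Genes whose profile was most like that of each member were taken from 11283 genes over 28 points, each a cell group of at least 50 cells in 1 library, by Pearson correlation of the log2 of CPM + 1. The points share 2 libraries, so the correlations are a description. Egfr was most like Meis1 (0.975) and Fgfr2 (0.963), Erbb2 like Papss1 (0.962) and Mapk13 (0.958), and Erbb3 like Gpx2 (0.940) and Tmprss13 (0.916). Hbegf was most like the immediate early gene Jun (0.935) and Epha2 (0.925), Areg like Cldn23 (0.836) and Frat2 (0.826), Ereg like S100a7a (0.804) and Elmod1 (0.787), and Btc like Slc5a9 (0.845) and Pglyrp4 (0.827). Tgfa was most like Duoxa1 (0.902) and Rassf9 (0.899), and Nrg1 like Dlk2 (0.940) and Pitpnm3 (0.939). Epgn had under 200 UMIs and was not profiled.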

How the data were processed

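UMI counts per gene and barcode were deposited by the authors for each library as a matrix from Cell Ranger (4.0.0, per the file headers), not normalized; genes were matched by symbol. The aligned genome build is not given in the sources used here. The other deposited columns hold gene and barcode names. Following the study's methods, barcodes under 800 detected genes were discarded, with mitochondrial UMIs left unfiltered. After scaling each cell to 10000 and taking logs, 2000 variable genes without the members and lists gave 30 principal components, and 15 neighbours were clustered by the Leiden algorithm at resolution 1 (leidenalg 0.10.2, igraph 0.11.9, scanpy 1.11.5, scikit-learn 1.9.0, Python 3.11.15). Clusters were named from fixed markers, by a scoring rule set after the data were seen, so the classes may differ from those of the study. Doublets were kept: the caller marked 17 and 3 cells, too few to have worked, and an alternative left out the 5% with the highest scores.

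CPM carry exact Poisson intervals, ratios exact conditional binomial intervals and shares Clopper-Pearson intervals (95%, scipy 1.17.1), and a count of 0 was taken to allow 3. Ratio calls and intervals were run on simulated Poisson counts without clumping of UMIs in single cells. That check could not show how the intervals hold on clumped counts. No test was possible with 1 library per ligand. Called genes had a ratio of at least 2 and at least 50 UMIs. Named genes were the members, the rest of the family, the genes with the lowest and highest CpG ODN/LPS ratio of each list, and the 2 genes most like each member with at least 200 UMIs. The members and lists were chosen with earlier results of these data known. Alternatives were other filters, resolutions, scalings and depths.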

Additional observations from a re-analysis of the deposited data

Results flagged for a closer look

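Some genes had a ratio above 1 in some epithelial-like clusters and below 1 in others, with counting intervals off 1 on both sides; the difference between clusters was not tested. The CpG ODN/LPS ratio of Erbb3 was 1.47 in the Ccl20 cluster and 0.719 in the Lgi2/Krt15 cluster, and that of Hbegf was 1.66 in the Cryba2/Krt76 cluster and 0.781 in the Lor cluster. Areg had 1.19 in the Lor cluster and 0.212 in the Hells basal-like cluster, on 5 and 9 UMIs. Nrg1 had 1.95 in the Krt4 cluster and 0.221 in the Hells basal-like cluster, on 11 and 19 UMIs. Ereg was at least 4.48-fold higher after CpG ODN in the Krt10 cluster, from 26 UMIs against 0 taken as 3 counts over the group, and had 0.0306 in the Krt4 cluster, where 1 cell held most of the LPS counts.

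Barcodes with under 800 detected genes, which entered no comparison, also held UMIs of the family. After CpG ODN, 1331 such barcodes held 6 UMIs of Egfr, 8 of Erbb2, 11 of Erbb3, 20 of Areg, 13 of Ereg and 46 of Hbegf, and after LPS 739 of them held 12 UMIs of Hbegf. Each of these counts was above the 3 that a count of 0 allows. In CPM, all 10 genes were higher after CpG ODN than after LPS in these barcodes. Ereg was at 8.05 CPM [4.29, 13.8] after CpG ODN and 0.666 [0.0169, 3.71], on 1 UMI, after LPS. That order is opposite to the 6.20 and 22.4 CPM in epithelial-like cells.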

How the results depend on the processing

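Of 942 values recomputed under 20 alternatives, 797 stayed the same, 145 moved and none reversed a called direction. Levels and ratios were the same inside their interval, and counts and the share of all genes within a fold of 1.5. Reversal was scored only for ratios already past 2-fold, so a smaller ratio that crossed 1 was not scored as reversed. Not every alternative covered every result. The ratios of upper-like to basal-like cells were not recomputed among cells low in the dissociation response or with thinned cells. Nor were they recomputed without the cell holding the most UMIs of the gene. The share of the members' UMIs in epithelial-like cells became 93.5% and 91.0% with at least 1200 detected genes, 93.2% after CpG ODN with at least 200, and 86.2% and 73.5% at Leiden resolution 0.6. The share of all genes' UMIs in the regrouped class was not recomputed, so these shares have no background beside them. Members past 2-fold between the libraries in lower spinous-like cells were 2 with at least 1200 genes and at resolution 1.5, and 0 at resolution 0.6 and among cells low in the dissociation response. In upper-like cells they were 1 with at least 1200 genes, with the mean CPM per cell, without the likely doublets, at resolution 1.5 and with scaling by the median gene, 4 with thinned cells and 0 among cells low in the dissociation response. They were 2 in basal-like cells when thinned (Areg and Tgfa), 2 in epithelial-like cells low in the dissociation response (Areg and Btc), and, in the Lor cluster, 1 when thinned and 0 among cells high in Lor, an alternative chosen after seeing the data, as were both equal cluster weights. Among the cells high in Lor, Epgn was at 3.31 [1.68, 6.83], but its 27 and 14 UMIs together were under the 50 needed for a call. Members lower in upper-like cells were 1 in each library with scaling by the median gene, where those higher were 8 and 7. List genes past 2-fold numbered 2 among genes with at least 200 UMIs. The share of all genes past the fold was 5.25% with at least 20 UMIs, 1.502% with at least 200, 10.6% with 1 in each library and 7.02% at a fold of 1.5. No paired analysis was possible because there was 1 library for each ligand. Among cells low in the dissociation response, few UMIs of Ereg remained (22 in epithelial-like and 8 in upper-like cells), so fewer members reached 50. Upper-like cells low in that response kept 40 UMIs of Hbegf and 4 of Areg over both libraries. For thinned cells the threshold of 50 UMIs was applied to the counts before thinning, so those calls may rest on few UMIs. The cause of the other moves was not tested. Members with few UMIs (Epgn, Btc and Nrg1 outside their main layer) are limited by depth, and ratios of Ereg rest on the cells of the Lor cluster.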
